A study of Mus musculus with 24 samples.

Results

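The bone morphogenetic protein (BMP) pathway was followed through 9 genes in the supporting cells of the mouse fetal gonad. The genes were taken by symbol, from a list drawn up with earlier results of these data known, and all 9 were found among the 32040 gene symbols listed: the ligands Bmp2, Bmp4 and Bmp7, the receptor Bmpr1b, the secreted antagonist Grem1, the intracellular inhibitor Smad6, and the target genes Id1, Id2 and Id3. RNA was measured in pre-granulosa cells of XX embryos (the ovarian supporting lineage) and Sertoli cells of XY embryos (the testicular supporting lineage) at 4 embryonic stages (day E11.5, day E12.5, day E13.5 and day E15.5), with 3 libraries in each of the 8 groups and 24 in all. XX cells were sorted by fluorescence from fetal gonads that carried the Tg(Enh8-mCherry) transgene, and XY cells from gonads of the SOX9-IRES-GFP line. No group had a treatment or a deletion, and strain background is not given in the sources used here. The sex, the mouse line and the fluorophore used to sort differ together between the groups, so their parts in an XX minus XY difference cannot be told apart. The labels do not say whether replicates came from separate embryos or litters, so the spread between these libraries may be technical. The p-values rest on that spread, taken for each gene over all 8 groups together unless a fit to fewer libraries is named. For XX E13.5 replicate 1, 1 field of the labels gives E12.5 while its title gives E13.5, and it was kept at E13.5.

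BMP ligands are secreted dimers that bind a complex of type I and type II serine/threonine kinase receptors. The active receptor phosphorylates SMAD1, SMAD5 and SMAD9, which enter the nucleus with SMAD4 and switch on direct targets such as the Id genes and the feedback inhibitor Smad6. ID proteins lack a DNA-binding region and hold E proteins, their basic helix-loop-helix partners, away from DNA. In the fetal ovary BMP2 is known as a signal of the pre-granulosa program that acts with the transcription factor FOXL2, and in the early gonad and mesonephros BMP4 is known from the mesenchyme and coelomic region.

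Library totals ran from 11275251 to 37256881 counts, and XY E11.5 was the deepest group. A count of 3, used as the floor of detection, stood for 0.0774 to 0.26 CPM, the counts of a gene scaled to a common library total. Levels below are in CPM on TMM-scaled library sizes unless TPM, the deposited per-length unit, is named. Counts were tested with edgeR's quasi-likelihood test over 16190 genes, a difference was called at an adjusted p under 0.05, and all 9 genes passed the count filter. All 8 pre-granulosa markers were called higher in XX at each stage, and 7 of 8 Sertoli markers at E11.5 and 8 of 8 afterwards were called higher in XY, of which Sox9 belongs to the sort itself. Markers of other cells were present as well. The summed level of 7 erythroid genes was 3230 to 25900 CPM in XX E11.5 against 10.5 to 22.6 CPM in XY E11.5, and that of 7 immune genes was 105 to 299 CPM against 0.245 to 1.44 CPM. All 7 immune genes were called higher in XX at each of the 4 stages, with sums of 27.3 to 48.2 CPM in XX and 0.187 to 1.42 CPM in XY from E12.5 on. Of 6 surface epithelium and mesonephric genes, 5 were called higher in XX at each stage from E12.5. The sum of 7 germ cell genes was highest at E15.5 in both sexes, at 97 to 158 CPM in XX and 43.7 to 75.8 CPM in XY. At E11.5 it was 2.19 to 5.38 CPM in XX and 4.67 to 7.15 CPM in XY. Because these are pools of sorted cells, fewer cells of a type and less RNA per cell cannot be told apart.

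Promoters are shown for 3 of the genes whose RNA changed most over the stages or that are known direct targets of the pathway. The sequences are the bases before the start of the RefSeq transcript in GRCm38.p6, each given 5′ to 3′ on the gene's own strand, with capitals for the 6-base motifs GGCGCC and GGAGCC, searched on both strands (GGCTCC is the second motif on the opposite strand). Such GC-rich words are known as contact sites of SMAD1 and SMAD5. The Smad6 window is chr9:64022060-64022309 (minus strand), the Bmp4 window is chr14:46390670-46390919 (minus strand), and the Id2 stretch is chr12:25096254-25096342 (minus strand), which is the part of its window that lies outside annotated exons. The Id2 stretch lies inside the GENCODE gene, downstream of its annotated start, because the RefSeq transcript used here begins further in.
Smad6: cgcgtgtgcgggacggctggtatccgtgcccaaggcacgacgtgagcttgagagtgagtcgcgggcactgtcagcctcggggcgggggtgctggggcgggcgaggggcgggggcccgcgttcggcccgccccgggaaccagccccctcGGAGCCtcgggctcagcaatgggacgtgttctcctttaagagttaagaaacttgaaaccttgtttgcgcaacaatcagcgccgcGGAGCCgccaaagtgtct
Bmp4: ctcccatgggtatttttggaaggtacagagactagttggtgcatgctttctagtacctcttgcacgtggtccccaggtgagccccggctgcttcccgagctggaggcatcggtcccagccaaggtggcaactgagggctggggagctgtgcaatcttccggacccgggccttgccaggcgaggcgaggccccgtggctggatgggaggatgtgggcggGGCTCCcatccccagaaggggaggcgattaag
Id2: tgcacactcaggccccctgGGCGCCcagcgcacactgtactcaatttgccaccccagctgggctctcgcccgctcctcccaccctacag
Smad6 held 2 matches to GGAGCC, which begin 102 and 18 bases before the start, counted from the first base of the transcript. Bmp4 held 1 match, which begins 32 bases before it, and Id2 held 1 match to GGCGCC, which begins 231 bases before it. A match of Id2 to GGAGCC, which begins 88 bases before the start, lies outside the stretch printed. Over 32851 promoter windows of the same length, 9.59% held GGCGCC and 26% held GGAGCC, so such matches are common and describe letters only. The motifs CAGAC (42.2% of windows) and GTCTAGAC (0.167%), searched in the same way, were not in the windows of these 3 genes. CAGAC was in windows of Grem1, Bmpr1b and Id3, which are not printed. It began 219 bases before the start in Grem1, 167 and 68 in Id3, and 128 and 245 in separate windows of Bmpr1b. Grem1 also held GGCGCC (78 bases before), and Id3 (187) and Bmpr1b (141 and 43, in separate windows) held GGAGCC. Of the 9 genes, 6 had a promoter in the table used, and Bmp2, Bmp7 and Id1 did not.

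Between the sexes, Bmp2, Bmp4 and Bmpr1b were called higher in XX at each stage from E12.5 and Bmp7 from E13.5, while the ID genes changed sides. At E11.5, 4 of the 9 genes were called (42% of all genes tested were called at that stage), with Bmp2 higher in XX and Id1, Id2 and Id3 higher in XY. At E12.5, 6 genes were called (62.1% of all genes), and all 6 were higher in XX, where 30.5% of all genes were called higher in XX. At E13.5, 6 genes were called (66.1% of all genes), 5 higher in XX and Id3 higher in XY. By E15.5 the 6 called genes (69.4% of all genes) were Bmp2, Bmp4, Bmp7 and Bmpr1b, higher in XX as were 34.9% of all genes, and Id1 and Id3, higher in XY. The median log2 difference, over all 9 genes at E11.5 and without Grem1 afterwards (both sexes were then at the floor), was 0.11, 1.70, 0.99 and 1.31 at the 4 stages, beside 0.02, -0.01, 0.01 and 0.05 over all genes tested. The shares called lie near those of all genes at each stage, so the counts alone set the 9 genes apart from no others.

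**Figure D1:**
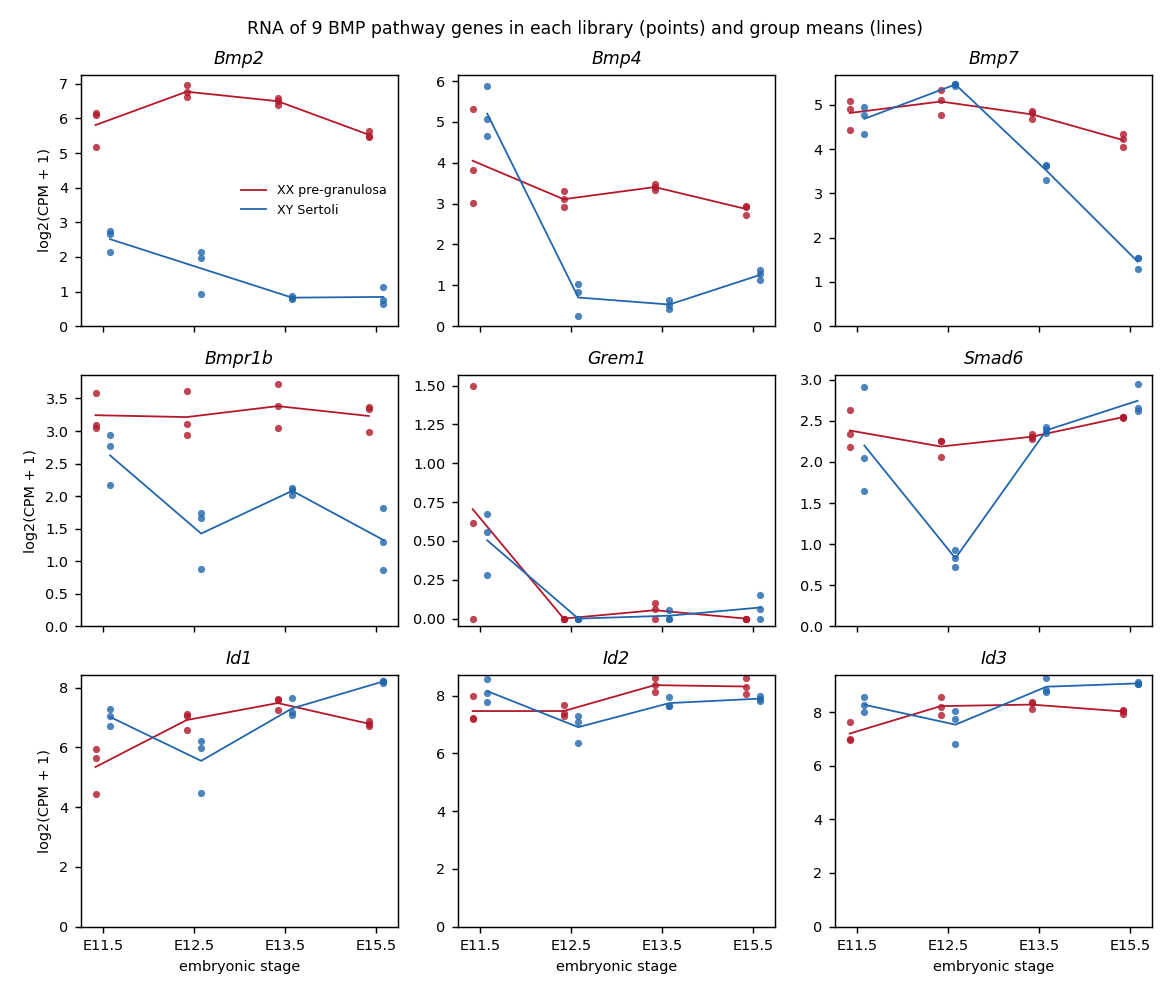
Level of each of the 9 genes, as log2(CPM + 1) on the vertical axes, against embryonic stage, with 1 point per library and lines through the means of 3 libraries (XX red, XY blue). Bmp2 is separated by sex at each stage, Bmp4 and Smad6 fall in XY at E12.5, and Bmp7 in XY reaches its peak at E12.5.

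Bmp2 (chr2:133552159-133562885, plus strand, protein-coding) had the widest separation between the sexes of these 3 ligands at each stage. In XX it read 69.9, 67.4 and 35.4 CPM at E11.5, then 107, 123 and 96.8 CPM at E12.5. The E13.5 libraries of XX held 83.1, 89.7 and 96.1 CPM, and those of E15.5 held 48.8, 44.2 and 42.9 CPM. The XX level was thus highest at E12.5, and XX E11.5 replicate 3 was the lowest library of all 12. XY libraries began with 5.68, 3.41 and 5.33 CPM at E11.5 and went to 0.887, 2.89 and 3.38 CPM by E12.5. Later XY libraries ran from 0.717 to 0.822 CPM (E13.5) and from 0.57 to 1.18 CPM (E15.5). At no stage did an XX library overlap an XY library. The XX minus XY log2 difference was 3.58 (SE 0.29, adjusted p 6.68e-09, edgeR) at E11.5, and then 5.50 (SE 0.33), 6.85 (SE 0.37) and 5.79 (SE 0.37) at the later stages in order, the E13.5 value being 115-fold.

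Within XX, Bmp2 rose by 0.92 on the log2 scale (SE 0.26, adjusted p 0.00972, edgeR) from E11.5 to E12.5. That call was lost without XX E11.5 replicate 3 (0.67, adjusted p 0.051) and without XX E12.5 replicate 2 (0.79, adjusted p 0.0562). It fell by 0.99 (SE 0.26, adjusted p 0.00873) from E13.5 to E15.5, and each fit without 1 library kept that call. Within XY, Bmp2 was 2-fold lower at E12.5 than at E11.5 (SE of the log2 change 0.32, adjusted p 0.0119), and it fell by 1.63 on the log2 scale (SE 0.41, adjusted p 0.00928) into E13.5. The second of these XY calls was lost without XY E12.5 replicate 2 (-1.45, adjusted p 0.0536) and without replicate 3 of that group (-1.27, adjusted p 0.0684), which are its higher libraries.

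Bmp4 (chr14:46383520-46390669, minus strand, protein-coding) was present in both sexes at E11.5 and did not exceed 1.58 CPM in later XY libraries. In XX E11.5 the libraries held 13.2, 7.02 and 38.8 CPM, and in XY E11.5 they held 24.1, 32.8 and 57.8 CPM, so the sexes overlapped and replicate 3 was the highest in each. Later XX libraries ran from 6.55 to 8.86 CPM (E12.5), 9.04 to 10.1 CPM (E13.5) and 5.64 to 6.73 CPM (E15.5). In XY E12.5 the libraries held 0.187, 1.04 and 0.777 CPM, followed by 0.332 to 0.572 CPM by E13.5 and 1.18 to 1.58 CPM by E15.5. Every later XY library lay below every XX library.

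The Bmp4 difference at E11.5 was -0.97 (SE 0.42, adjusted p 0.0692, edgeR), which did not pass the threshold. It passed without XX E11.5 replicate 3 (-1.94, adjusted p 0.000172) and without XY E11.5 replicate 1 (-1.23, adjusted p 0.0385). From E12.5 the gene was higher in XX, by 3.50 (SE 0.55, adjusted p 1.45e-05), 4.37 (SE 0.58, adjusted p 1.44e-06) and 2.18 (SE 0.52, adjusted p 0.000892) at the 3 stages in order. The change lay mainly in XY, where Bmp4 fell by 5.82 on the log2 scale (SE 0.56, adjusted p 3.64e-08), or 56.3-fold, from E11.5 to E12.5. In XX it fell by 1.35 (SE 0.43, adjusted p 0.0214) over the same step. That XX call was lost without XX E11.5 replicate 3 (-0.39, adjusted p 0.427), without XX E12.5 replicate 2 (-1.27, adjusted p 0.0702) and without XX E12.5 replicate 3 (-1.37, adjusted p 0.0525).

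Markers of interstitial and stromal cells moved with Bmp4. The sum of 6 such genes (Pdgfra, Nr2f2, Tcf21, Col1a1, Col3a1 and Dcn) was 906, 456 and 2880 CPM in XX E11.5 replicates 1 to 3, and 967, 1270 and 1650 CPM in XY E11.5. In both groups the order of the libraries was the same as for Bmp4. The XY sum was 42.9 to 48.1 CPM by E12.5, 19.7 to 22.9 CPM by E13.5 and 123 to 159 CPM by E15.5, and in XX it stayed at 307 to 584 CPM at these stages. Each of the 6 genes fell in XY into E12.5, and each was called higher in XX than in XY at both E12.5 and E13.5. None of the 6 was at 0, or at the floor, in all libraries of a group. Their part in the Bmp4 result was not tested.

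Bmp7 (chr2:172868012-172940321, minus strand, protein-coding) was not called between the sexes at E11.5 or E12.5 and was higher in XX afterwards. At E11.5 XX held 29.2, 33.1 and 20.7 CPM and XY held 26.3, 29.8 and 19.2 CPM, which overlap. At E12.5 XX held 33.3, 39.6 and 26.5 CPM and XY held 42.2, 43.5 and 43.4 CPM, the highest of any group and with no overlap. XX then held 24.7 to 28.1 CPM (E13.5) and 15.6 to 19.3 CPM (E15.5), against 8.85 to 11.4 CPM and 1.46 to 1.91 CPM in XY. The XY level therefore went from the highest of the 8 groups to the lowest between E12.5 and E15.5.

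The Bmp7 difference between the sexes was 0.14 (SE 0.17, adjusted p 0.528, edgeR) at E11.5 and -0.38 (SE 0.17, adjusted p 0.0611) at E12.5. The second value passed the threshold without XX E12.5 replicate 2 (-0.46, adjusted p 0.0426). Bmp7 was higher in XX by 1.34 (SE 0.18, adjusted p 1.27e-06) at E13.5 and by 3.30 (SE 0.22, adjusted p 1.92e-11) at E15.5. In XY it rose by 0.78 (SE 0.17, adjusted p 0.000697) into E12.5, fell by 2.04 (SE 0.18, adjusted p 1.92e-07) into E13.5 and fell by 2.56 (SE 0.21, adjusted p 6.47e-08) into E15.5. In XX the steps into E12.5 and E13.5 did not pass, and the fall of 0.60 (SE 0.18, adjusted p 0.0161) into E15.5 was lost without XX E13.5 replicate 1 (-0.56, adjusted p 0.0589) or XX E15.5 replicate 3 (-0.52, adjusted p 0.0857).

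The make-up of the 3 ligands was compared per length, in the deposited TPM. Their summed level in XX was 67.1 ± 17 TPM (SD, n = 3) at E11.5, followed by 77.5 ± 6.64, 59.5 ± 1.1 and 33.6 ± 2.3 TPM at the later stages in order. In XY the sum was 62.4 ± 17.9 TPM at E11.5, then 19.4 ± 1.39, 5.51 ± 0.395 and 3.43 ± 0.252 TPM. The sexes thus began at sums within the spread of the libraries and ended about an order of magnitude apart. Surface epithelium and mesonephric genes were set beside the ligand sum. The sum of 6 such genes (Upk3b, Krt19, Lgals7, Pax2, Pax8 and Krt18) was 222 to 481 CPM in XX E11.5 and 873 to 928 CPM in XX E15.5, and it was 172 to 225 CPM over all XY libraries. Of the 6, 4 fell and 1 rose in XY into E12.5, a step over which the ligand sum fell. Upk3b, a marker of the surface epithelium, was at 16.6 to 60.4 CPM in XY E11.5 and 0.0934 to 0.431 CPM in XY E12.5. Over that step the XY mean went from 3.21 to 0.545 CPM for Krt19, 4.36 to 1.39 CPM for Pax2 and 31.1 to 5.73 CPM for Pax8. The means of Lgals7 (82.9 and 98 CPM) and Krt18 (44.6 and 107 CPM) made up most of the XY sum at both stages. None of the 6 was at 0 in all libraries of a group, and their part in the ligand results was not tested. In XX, Bmp2 made up 41.1% ± 19.5 of the sum at E11.5 and 65.7% ± 2.35, 60.1% ± 4.91 and 54.1% ± 1.3 at the later stages. Among these 3 ligands, the leading one in XY changed from Bmp4 to Bmp7 and back. Bmp4 held 75.4% ± 8.86 of the XY sum at E11.5, Bmp7 held 91.5% ± 4.27 by E12.5 and 77.3% ± 7.92 by E13.5, and Bmp4 held 68.9% ± 8.98 in the last stage. By E15.5 that share was of a sum near 3 TPM, so it describes low levels. Bmp8a, a ligand outside this sum, was at 8.32 ± 0.55 TPM in XY E13.5 and 4.75 ± 0.615 TPM in XY E15.5. In both groups its mean was above that of each of the 3 ligands.

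**Figure D2:**
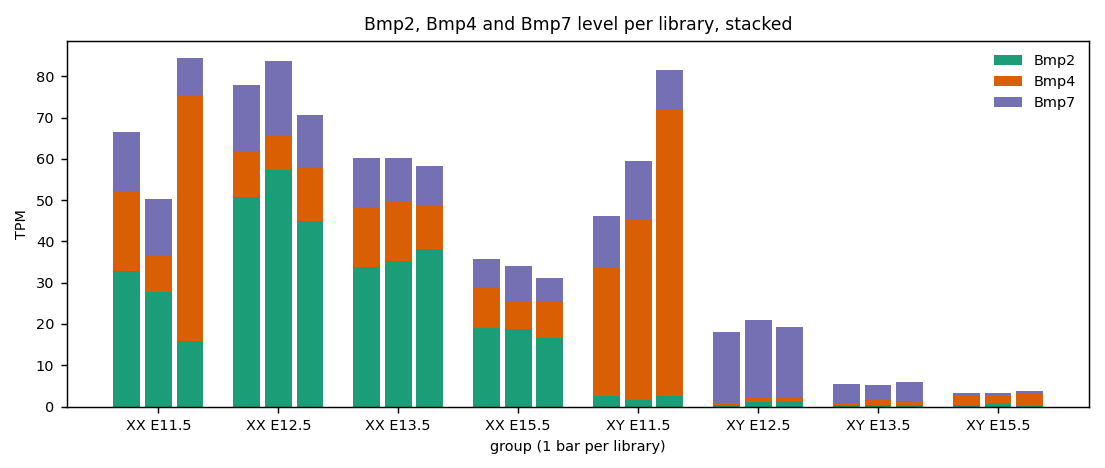
Stacked level of Bmp2, Bmp4 and Bmp7 in TPM (vertical axis) in each of the 24 libraries (1 bar per library, grouped by sex and stage). Bmp2 fills most of each XX bar from E12.5, Bmp4 fills most of each XY E11.5 bar and of XX E11.5 replicate 3, and the XY sum shrinks to 3.43 TPM at E15.5.

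Bmpr1b (chr3:141837136-142169425, minus strand, protein-coding), a type I receptor for BMP ligands, was called lower in XY from E12.5 on, with no called change over the stages in XX. The XX libraries ran from 7.26 to 11 CPM (E11.5), 6.64 to 11.2 CPM (E12.5), 7.26 to 12.2 CPM (E13.5) and 6.95 to 9.33 CPM (E15.5). These ranges overlapped at all stages, and the test for any change over the stages in XX gave an adjusted p of 0.942 (edgeR). In XY the libraries held 5.81, 3.51 and 6.66 CPM (E11.5), then 0.841, 2.16 and 2.33 CPM (E12.5), then 3.37, 3.27 and 3.07 CPM (E13.5), and last 2.52, 1.46 and 0.823 CPM (E15.5). Each XX library lay above each XY library of its stage.

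The Bmpr1b difference was 0.69 (SE 0.33, adjusted p 0.0979, edgeR) at E11.5 and did not pass there. It was 2.24 (SE 0.36, adjusted p 1.55e-05) at E12.5, 1.57 (SE 0.34, adjusted p 0.000448) at E13.5 and 2.37 (SE 0.37, adjusted p 7.98e-06) at E15.5. In XY, Bmpr1b fell by 1.58 (SE 0.36, adjusted p 0.000857) into E12.5. The next XY steps were 0.86 (SE 0.36, adjusted p 0.115) and -0.98 (SE 0.37, adjusted p 0.066), and the latter passed without XY E15.5 replicate 1 (-1.49, adjusted p 0.0194).

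Grem1 (chr2:113746164-113758646, minus strand, protein-coding), a secreted antagonist that binds BMP2, BMP4 and BMP7, was close to the floor throughout. At E11.5 the 3 XX libraries held 10, 0 and 28 counts and the 3 XY libraries held 8, 23 and 18 counts. At E12.5 no library of either sex held a count, which allows up to 0.136 CPM in XX and 0.14 CPM in XY in the shallowest library. At the later stages no library held more than 2 counts. Intervals and floors cover counting error only.

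The fall of Grem1 from E11.5 to E12.5 was called in XX (adjusted p 0.00569, edgeR) and in XY (adjusted p 0.00894), at least 6.11-fold and at least 3.15-fold against the mean floor per library. Without XX E11.5 replicate 3 the XX fall was still called but was at least 2.08-fold, and without replicate 2 of that group, which held no count, at least 9.16-fold. Leaving out 1 XY E11.5 library gave bounds of 2.54-fold to 3.92-fold. The XY call was lost in limma-trend on log2(TPM + 1) with no filter (-0.22, adjusted p 0.131). The XX E11.5 level rested largely on replicate 3, and the sexes did not differ there beyond their spread (log2 difference 0.80, SE 0.87, adjusted p 0.486). Without XX E11.5 replicate 3 that difference was -0.74 (adjusted p 0.565). The stromal sums given for Bmp4 were also highest in that library, and their part in the Grem1 level was not tested.

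Smad6 (chr9:63953076-64022059, minus strand, protein-coding), an inhibitory SMAD that blocks receptor signalling as feedback, dipped in a single group. In XX its libraries held 4.06, 3.53 and 5.19 CPM (E11.5), then 3.77, 3.77 and 3.16 CPM (E12.5), then 3.93, 4.07 and 3.85 CPM (E13.5), and last 4.86, 4.8 and 4.86 CPM (E15.5). In XY they held 2.12, 3.12 and 6.55 CPM (E11.5), then 0.654, 0.906 and 0.777 CPM (E12.5), then 4.37, 4.1 and 4.22 CPM (E13.5), and last 6.73, 5.16 and 5.32 CPM (E15.5). The 3 XY E12.5 libraries lay below all 21 others.

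At E12.5 Smad6 was higher in XX by 2.19 on the log2 scale (SE 0.31, adjusted p 3.90e-06, edgeR), and fits without 1 library gave 2.12 to 2.37. The other stages gave 0.11 (adjusted p 0.777), -0.10 (adjusted p 0.775) and -0.25 (adjusted p 0.433). The E11.5 value passed without XY E11.5 replicate 3 (0.71, adjusted p 0.0125). In XY, Smad6 fell by 2.33 (SE 0.31, adjusted p 2.28e-06) into E12.5 and rose by 2.43 (SE 0.31, adjusted p 1.72e-05) into E13.5. In XX the test over all stages gave an adjusted p of 0.501. The level is low, with 52 counts over the 3 XY E12.5 libraries against 252 over the 3 XX ones.

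**Figure D3:**
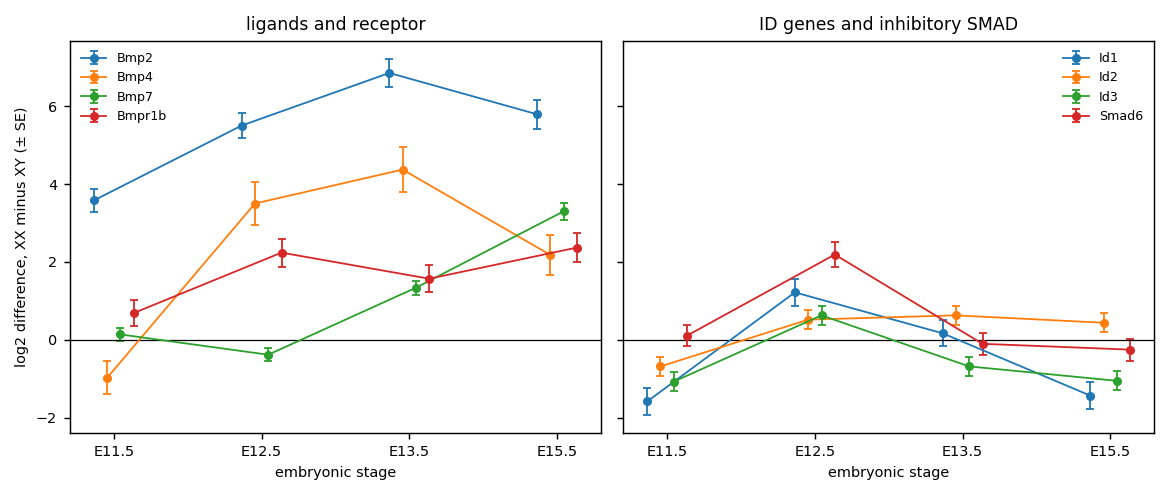
XX minus XY log2 difference from edgeR (vertical axis, ± SE) against embryonic stage for ligands and receptor (left) and for the ID genes and Smad6 (right), with values above 0 higher in XX. Bmp2 stays at or above 3.58, Bmp7 climbs from -0.38 to 3.30, and Id1 and Id3 go from below 0 at E11.5 to above 0 at E12.5 and below 0 at E15.5.

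The ID genes are direct targets of the pathway, and Id1, Id2 and Id3 were each called higher in XY at E11.5 and higher in XX at a later stage. Id1 (chr2:152736251-152737410, plus strand, protein-coding) read 48.6, 60.9 and 20.8 CPM in the XX and 131, 105 and 155 CPM in the XY libraries of E11.5. By E12.5 it read 94.8, 131 and 138 CPM in XX and 21.2, 61.6 and 72.9 CPM in XY, so the order was the opposite, again with no overlap. At E13.5 the sexes overlapped, at 151 to 195 CPM in XX and 134 to 202 CPM in XY. At E15.5 XX held 104 to 117 CPM and XY held 285 to 301 CPM, the highest Id1 of any group.

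The Id1 difference was -1.58 (SE 0.34, adjusted p 0.00101, edgeR) at E11.5, 1.22 (SE 0.34, adjusted p 0.00403) at E12.5, 0.17 (SE 0.33, adjusted p 0.676) at E13.5 and -1.43 (SE 0.34, adjusted p 0.000915) at E15.5. The 3 calls held in each fit without 1 library, at -1.91 to -1.27, 0.90 to 1.61 and -1.47 to -1.34. In XX, Id1 rose by 1.47 (SE 0.34, adjusted p 0.00276) into E12.5. In XY it fell by 1.33 (SE 0.34, adjusted p 0.00273) over that step and rose by 1.62 (SE 0.34, adjusted p 0.00264) into E13.5.

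Id3 (chr4:136143497-136145755, plus strand, protein-coding) followed a like course. At E11.5 it was at 124, 198 and 126 CPM in XX and 307, 253 and 376 CPM in XY, with no overlap. At E12.5 it was at 238, 293 and 377 CPM in XX and 112, 211 and 262 CPM in XY, which overlap in 1 library of each sex. At E13.5 XX held 279 to 332 CPM and XY 428 to 613 CPM, and at E15.5 XX held 245 to 272 CPM and XY 522 to 558 CPM. XY was thus the higher sex at 3 of the 4 stages.

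The Id3 difference was -1.07 (SE 0.24, adjusted p 0.00152, edgeR) at E11.5, 0.63 (SE 0.24, adjusted p 0.0282) at E12.5, -0.68 (SE 0.24, adjusted p 0.0173) at E13.5 and -1.05 (SE 0.24, adjusted p 0.00071) at E15.5. The E12.5 call was lost without XX E12.5 replicate 3 (0.49, adjusted p 0.127) and without XY E12.5 replicate 1 (0.40, adjusted p 0.121). The E13.5 call was lost without XX E13.5 replicate 1 (-0.61, adjusted p 0.0623) or replicate 2 (-0.64, adjusted p 0.0633) and without XY E13.5 replicate 1 (-0.44, adjusted p 0.163). In XX, Id3 rose by 1.02 (SE 0.24, adjusted p 0.0032) into E12.5. In XY it rose by 1.35 (SE 0.24, adjusted p 0.000701) into E13.5, after a fall of 0.68 (SE 0.24, adjusted p 0.0236) that was lost without XY E11.5 replicate 3 (-0.60, adjusted p 0.0839) or XY E12.5 replicate 1 (-0.46, adjusted p 0.0902).

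Id2 (chr12:25093799-25097140, minus strand, protein-coding) was called between the sexes at E11.5 and E13.5 only. At E11.5 XX held 250, 150 and 144 CPM and XY held 274, 219 and 381 CPM, which overlap. At E12.5 XX held 157, 169 and 204 CPM and XY held 80.8, 135 and 154 CPM. From E13.5 XX was at 278 to 388 CPM and then 263 to 387 CPM, against 197 to 248 CPM and 226 to 252 CPM in XY. XX libraries were above XY libraries from E12.5 on, unlike Id1 and Id3 at E15.5.

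For Id2 the difference was -0.68 (SE 0.24, adjusted p 0.0257, edgeR) at E11.5, 0.52 (SE 0.24, adjusted p 0.0658) at E12.5, 0.63 (SE 0.24, adjusted p 0.0253) at E13.5 and 0.44 (SE 0.24, adjusted p 0.108) at E15.5. Single libraries decided several of these. The E11.5 call was lost without XX replicate 2 (-0.57, adjusted p 0.108), XX replicate 3 (-0.56, adjusted p 0.102) or XY replicate 3 (-0.43, adjusted p 0.192). The E12.5 value passed without XX replicate 1 (0.66, adjusted p 0.0442) or XY replicate 3 (0.78, adjusted p 0.0181), and the E13.5 call was lost without XX replicate 3 (0.50, adjusted p 0.108), XY replicate 2 (0.64, adjusted p 0.0555) or XY replicate 3 (0.58, adjusted p 0.0827). In XX, Id2 rose by 0.91 (SE 0.24, adjusted p 0.00644) into E13.5. In XY it fell by 1.24 (SE 0.24, adjusted p 0.000224) into E12.5 and rose by 0.80 (SE 0.24, adjusted p 0.0268) into E13.5, a rise that was lost without XY E12.5 replicate 1 (0.58, adjusted p 0.121) or 2 (0.88, adjusted p 0.0576) and without XY E13.5 replicate 1 (0.69, adjusted p 0.0998) or 2 (0.86, adjusted p 0.0521).

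Summed per length, the 3 ID genes reached 511 ± 108, 909 ± 169, 1050 ± 118 and 872 ± 88.3 TPM (SD, n = 3) in XX at the 4 stages in order. In XY the sum was 1080 ± 264, 472 ± 176, 1160 ± 217 and 1450 ± 38.9 TPM. The XY E15.5 group thus had the highest ID sum of the 8 groups beside the lowest sum of Bmp2, Bmp4 and Bmp7. The share of Id2 in the XY sum went from 36.9% ± 2.04 at E11.5 to 20.1% ± 0.842 at E15.5, while in XX it was 46.4% ± 11 and 44.1% ± 5.37.

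Immediate-early genes, which respond within minutes to tissue dissociation, differed between libraries in a way that touches the ID genes. The sum of 8 of them (Fos, Fosb, Jun, Junb, Egr1, Ier2, Atf3 and Dusp1) was 3590 CPM in XY E12.5 replicate 1 against 6240 and 6560 CPM in its replicates, and this library was the lowest of its group for Id1, Id2 and Id3. The sum was 1310 CPM in XX E11.5 replicate 3 against 7260 and 4420 CPM, and this library had the lowest Id1 of all 24. XX E13.5 (8660 to 10700 CPM) and XY E15.5 (9340 to 10000 CPM) had the highest sums. Within XX E12.5, XX E15.5, XY E12.5 and XY E13.5, the libraries had the same order in Id1 as in the immediate-early sum. In XY E15.5 replicate 1 was the lowest in both. The order differed in XX E11.5, where replicate 1 had a higher sum than replicate 2 but less Id1 (48.6 against 60.9 CPM). It also differed in XX E13.5 and XY E11.5. Across groups, XY E13.5 held 134 to 202 CPM of Id1 at sums of 4290 to 5340 CPM, and XX E12.5 held 94.8 to 138 CPM at 4900 to 7890 CPM. None of the 8 genes was called between the sexes at E11.5, 1 was called in each direction at E12.5, 5 were called higher in XX at E13.5 and 5 higher in XY at E15.5. The Id1 differences at E11.5 and E12.5 were still called when XX E11.5 replicate 3 and XY E12.5 replicate 1, respectively, were left out, at -1.27 (adjusted p 0.0048, edgeR) and 0.90 (adjusted p 0.0149). Endothelial genes, whose cells are known to express Id1 and Id3, summed to 32.7 to 70 CPM over XX libraries and 33.1 to 42.9 CPM over XY libraries. The part of either list in the ID results was not tested.

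**Figure D4:**
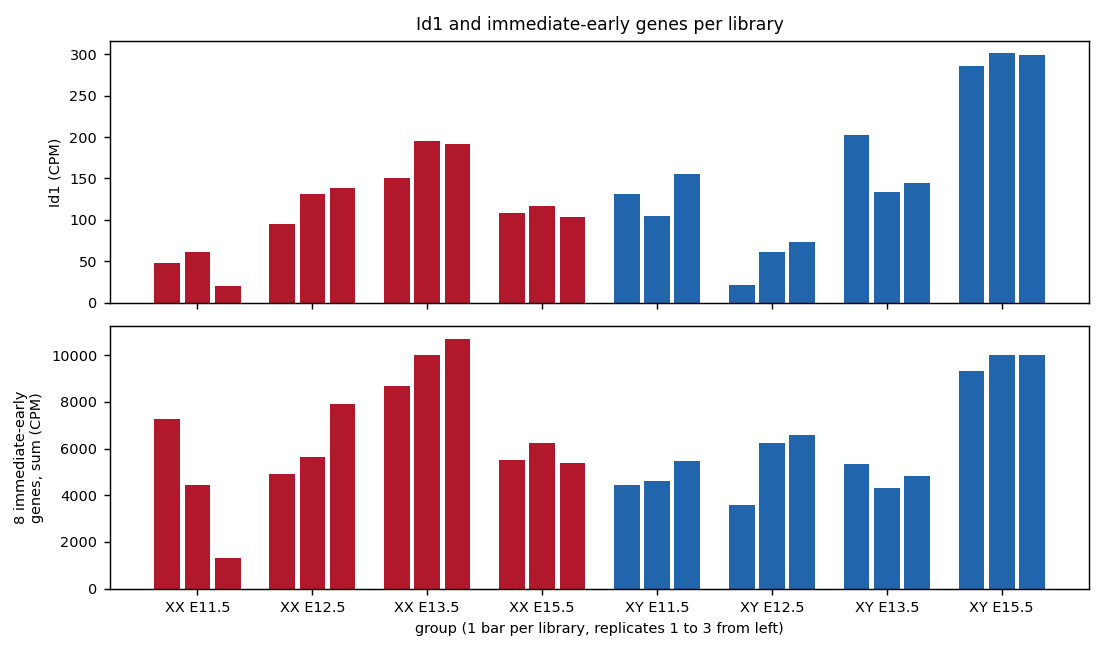
Id1 (top) and the sum of 8 immediate-early genes (bottom), both in CPM on the vertical axes, with 1 bar per library in replicate order within each group (XX red, XY blue). XX E11.5 replicate 3 and XY E12.5 replicate 1 are low in both panels, and the 3 XY E15.5 libraries are high in both. Within XX E12.5, XX E15.5, XY E12.5 and XY E13.5 the order of the bars is the same in both panels. The order differs in XX E13.5, XY E11.5 and XX E11.5, where replicate 1 is above replicate 2 in the sum and below it in Id1.

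Several of the smaller differences also depended on the fit. With only the compared libraries in the fit, the calls of Id2 at E11.5 (-0.70, adjusted p 0.136, edgeR) and Id3 at E12.5 (0.70, adjusted p 0.0849) between the sexes were lost. The same fit lost the changes into E12.5 of Bmp2 (0.89, adjusted p 0.0715), Bmp4 (-1.38, adjusted p 0.158) and Id1 (1.45, adjusted p 0.0523) in XX and of Bmp2 (-1.08, adjusted p 0.0702) and Id3 (-0.75, adjusted p 0.0609) in XY. With limma-trend on log2(TPM + 1), the calls of Id2 at E13.5 between the sexes (0.55, adjusted p 0.0577), Id2 into E13.5 in XX (0.64, adjusted p 0.0516), Bmp4 into E12.5 in XX (-0.98, adjusted p 0.0849) and Bmp2 into E13.5 in XY (-0.54, adjusted p 0.0986) were lost, and Id2 at E12.5 passed (0.79, adjusted p 0.00973). With no count filter, Id3 at E12.5 (0.64, adjusted p 0.0501) and Id2 at E13.5 (0.61, adjusted p 0.0519) were just over the threshold.

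Over time, the step with the most calls was that from E11.5 to E12.5 in XY, where all 9 genes were called (51.9% of all genes tested were). Bmp7 rose and the other 8 fell, where 27.1% of all genes were called and rose and 24.8% were called and fell. From E12.5 to E13.5 in XY, 6 were called (16.6% of all genes): Smad6, Id1, Id2 and Id3 rose (8.02% of all genes rose), and Bmp2 and Bmp7 fell (8.62% fell). In the last XY step Bmp7 alone was called and fell, 1 of 9 (21.3% of all genes were called and 9.79% fell). In XX, 5 genes were called into E12.5 (34% of all genes), with Bmp2, Id1 and Id3 up and Bmp4 and Grem1 down, 1 into E13.5 (31.7%), which was Id2, and 2 into E15.5 (25.6%), which were Bmp2 and Bmp7. Any change over the stages was called for 7 genes in XX (74% of all genes), all but Bmpr1b and Smad6, and for all 9 in XY (70.3%), of which Grem1 was lost in limma-trend with no filter (adjusted p 0.254). The difference between the sexes itself changed over the stages for 8 of the 9 genes (70.1% of all genes), with Grem1 as the exception (adjusted p 0.578, edgeR).

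Of 52 other genes of the pathway, 43 passed the count filter. Between the sexes at E11.5, 16 of the 43 were called, of which 7 were higher in XX and 9 in XY (42% of all genes tested were called). The later stages in order had 28 (15 and 13), 30 (17 and 13) and 31 (19 and 12) called, beside 62.1%, 66.1% and 69.4% of all genes, so these counts lie near the share of all genes. Of 8 tested genes that are BMP-responsive, the fourth ID gene or E proteins, 4 were called in the first stage and 8 in the next, all higher in XX, and then 7 (6 higher in XX) and 8 (6 higher in XX), where 21.4%, 30.5%, 32.8% and 34.9% of all genes were called higher in XX. Of 12 tested secreted or membrane modulators, 2, 5, 8 and 7 were called at the stages in order, with 2, 3, 4 and 4 of these higher in XY, where 20.6%, 31.5%, 33.3% and 34.4% of all genes were. No test compared the roles. With 6 libraries of E11.5 alone in the fit, the count at that stage was 7 of 42. Over all genes that fit called 2718 of 15395, in place of 6803 of 16190.

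Among other ligands, Bmp5 and Bmp8a were on opposite sides. Bmp5 was at 8.61 to 19.1 CPM in the XY E11.5 libraries and no higher than 0.228 CPM in later XY ones, while XX held 10.2, 10.4 and 15.8 CPM at E12.5 (log2 difference 6.98, SE 0.53, adjusted p 3.08e-10, edgeR). Bmp8a was at most 0.748 CPM in any XX library and 10.9 to 12 CPM in XY E13.5 (difference -6.12, SE 0.58, adjusted p 7.67e-09).

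Among receptors and co-receptors, Acvrl1, a type I receptor for BMP9 and BMP10, was lower in XY than in XX at E11.5 (a difference of 1.06, SE 0.20) and higher in XY afterwards. It was at 1.79 to 3.33 CPM in XY E11.5 and 122 to 130 CPM in XY E15.5, against 6.19 to 9.73 CPM in XX E15.5 (difference -3.94, SE 0.19, adjusted p 2.11e-13, edgeR). Rgma, a co-receptor, was at 13.7 to 15.8 CPM in XY E15.5 and 0.434 to 1.4 CPM in XX (difference -3.90, SE 0.28). Its relative Rgmb was higher in XY at E13.5 by 2.42 (a difference of -2.42, SE 0.27).

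Among secreted modulators, Bmper, a secreted BMP-binding protein, was higher in XY at E15.5 (38 to 42.8 CPM against 2.73 to 3.79 CPM, difference -3.56, SE 0.45, adjusted p 6.83e-07, edgeR). So was Nbl1, an antagonist, at E13.5 (43.3 to 50.6 CPM against 14.2 to 18.1 CPM, difference -1.51, SE 0.29). At E12.5 the order of Nbl1 was the opposite, with 22.2 to 31.4 CPM in XX and 10.7 to 17.2 CPM in XY. Dand5, a relative of Nbl1, was at 14.3 to 17.4 CPM in XY E15.5 and 5.21 to 6.26 CPM in XX (difference -1.49, SE 0.15).

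Inside the cell, Smad7, the other inhibitory SMAD, was called higher in XY at all 4 stages and was not lowest in XY E12.5. It was at 43.6 to 45.8 CPM in XY E12.5 and 76.3 to 84.2 CPM in XY E15.5, against 13.2 to 15.9 CPM and 23.9 to 25.3 CPM in XX. Its difference was -1.58 (SE 0.14, adjusted p 2.41e-09, edgeR) at E12.5 and -1.73 (SE 0.14, adjusted p 3.88e-10) at E15.5. Smad1, a signal-carrying SMAD, was higher in XX at E15.5 by 1.51 (SE 0.18), and so was Smurf1, a ubiquitin ligase of the pathway, by 0.76 (SE 0.17). Both had the opposite order at an earlier stage. At E11.5 Smad1 was at 13.3 to 16 CPM in XY and 7.11 to 8.23 CPM in XX. At E12.5 Smurf1 was at 10.6 to 12.2 CPM in XY and 7.82 to 8.74 CPM in XX.

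Among responsive genes, Msx1, which also serves above as a pre-granulosa marker, was at 177 to 217 CPM in XX E13.5 against 0.757 to 1.18 CPM in XY (difference 7.69, SE 0.22, adjusted p 9.53e-17, edgeR). Its relative Msx2 was at least 38.1-fold higher in XX at E12.5 and at least 59.4-fold higher at E15.5, against XY groups at the floor. Tcf12, an E protein that ID proteins bind, was at 817 to 863 CPM in XX E15.5 and 50.9 to 67.3 CPM in XY (difference 3.82, SE 0.21). Hey1 was higher in XX at E13.5 by 3.63 (SE 0.12). At E15.5, where Id1 and Id3 were higher in XY, 34.9% of all genes were called higher in XX. Of the 8 genes of this role, which holds E proteins as well as BMP-responsive genes, 6 were (Hey1 by 2.70, SE 0.12). The other two were called higher in XY, as were these ID genes: Atoh8 (difference -1.37, SE 0.31) and Tcf3, an E protein (difference -0.88, SE 0.32).

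**Figure D5:**
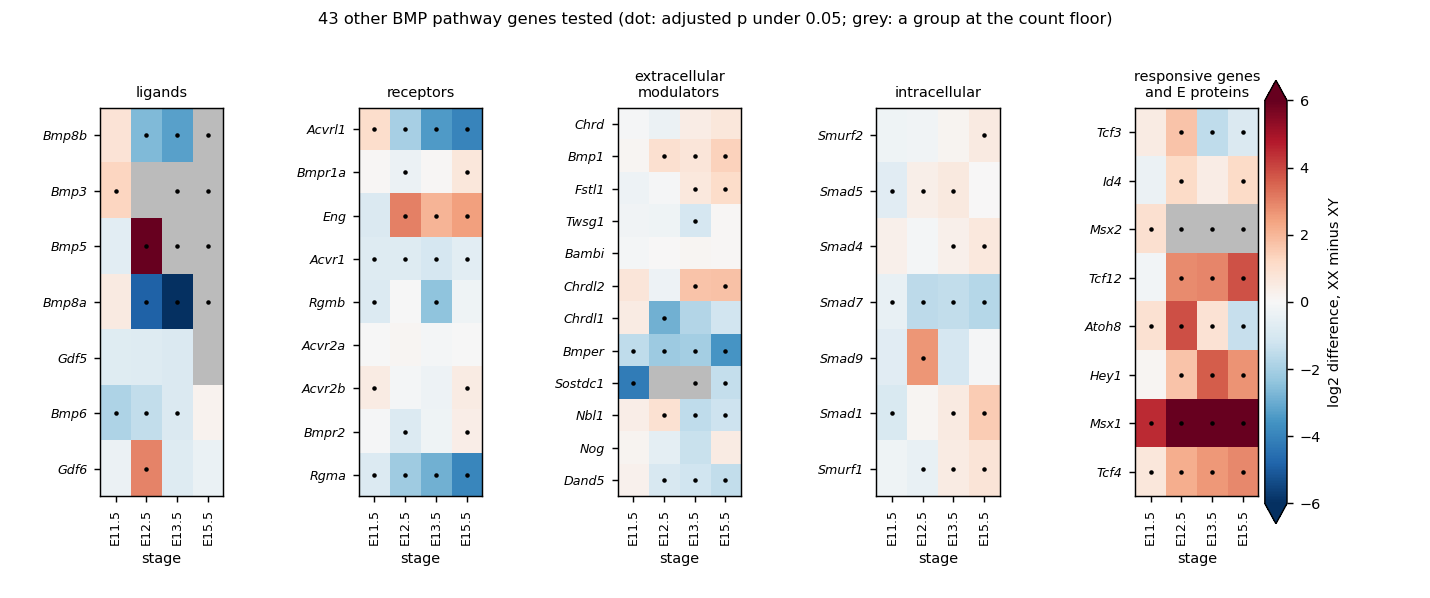
XX minus XY log2 difference (colour, red higher in XX and blue higher in XY, clipped at 6) of the 43 other pathway genes tested, by role (panels) and embryonic stage (columns). Dots mark adjusted p under 0.05 and grey marks a group at the floor of 3 counts. Acvrl1, Rgma and Smad7 are blue from E12.5, and Msx1, Tcf12 and Tcf4 are red.

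Genes of most like pattern were ranked by Pearson r of log2(CPM + 1) over the 24 libraries, among genes with at least 10 CPM in some group. The libraries share sex, line and stage, so r describes these groups and carries no p. Id1 and Id3 were each other's nearest gene of 11164 compared (r 0.923), while r was 0.643 between Id1 and Id2. For Bmp2 the nearest were Stx11 (0.981), Lypd6 and Kcnip1 (0.978 each), and for Bmp4 they were Asb4 (0.980), Cdh11 (0.977) and Cdh6 (0.976). Bmp7 was nearest to Rnf128 (0.943), Pde9a (0.921) and Hacd1 (0.918), and Bmpr1b to Serpinb6b (0.918), Fgfr2 (0.910) and Creb3l4 (0.907). Grem1 was near to Actg2 (0.942), Actc1 (0.926) and Cnn1 (0.923), a ranking set by the few libraries above the floor. Smad6 had weaker neighbours in Pgm2 (0.845), Pdlim7 (0.819) and Anxa3 (0.809), and Id2 in Dnajb4 (0.824), Gas5 (0.823) and Nfib (0.822).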

How the data were processed

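Polyadenylated RNA of sorted cells was made into libraries with a low-input kit that amplifies cDNA, per the labels' protocols, and no molecular identifiers are described. The authors deposited estimated counts (expected counts) and TPM values per gene. The genome build is mm10 per the submitters' processing notes, and the aligner, counter and use of strand are not given in the sources used here, so genes that overlap others are less certain. The expected counts, of which 17.5% were not whole, were rounded to whole numbers. Of 32040 symbols, 16190 passed filterByExpr. edgeR 4.0.16 (R 4.3.3; TMM, robust quasi-likelihood, 1 mean for each of 8 groups of 3, 16 residual degrees of freedom) gave all adjusted p-values unless another tool is named, by Benjamini-Hochberg over all genes tested. F tests asked for any change over the stages and for a sex-by-stage interaction. In all 24 pairs of replicates the counts differed beyond counting noise (chi-square per degree of freedom 3.83 to 114). This value was 46.8 to 114 in XX E11.5, 36.3 to 59.7 in XY E11.5 and 3.83 to 33.9 in the groups from E12.5 on. Because the spread was pooled over all groups, p-values at E11.5 do not measure the spread at that stage alone. Same-numbered libraries correlated above 0.1 in only some pairs (0.11, 0.0871 and 0.298 at E11.5), so numbers were not taken to pair libraries.

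The 9 genes, the pathway and marker lists and the tests were chosen with earlier results of these data known. The pathway genes named are, per role, the 3 with the largest XX minus XY difference at any stage among called genes whose groups do not overlap and whose higher mean reached 10 CPM; Msx2, Atoh8, Tcf3 and Upk3b were named after their values were seen. A few genes of these lists and rankings are not reported here and were left out of their counts and sums. Gene positions are from GENCODE M21 (GRCm38) and promoters from RefSeq (GRCm38.p6). Totals of 11275251 to 37256881 counts set the precision. Alternatives were DESeq2 size factors and DESeq2 1.42.0, other count filters, limma-trend (limma 3.58.1) on log2(TPM + 1) or log2(TPM + 0.1), the replicate number as a block, a fit to the compared libraries alone, and fits without each library.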

Additional observations from a re-analysis of the deposited data

Results flagged for a closer look

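The sex-by-stage interaction test of edgeR called 8 of the 9 genes, which means that their difference between the sexes was not the same at all stages. The adjusted p was 2.47e-09 for Bmp7, whose difference went from -0.38 at E12.5 to 3.30 at E15.5. For Bmp4 it was 7.05e-06, with differences from -0.97 at E11.5 to 4.37 at E13.5. For Bmp2 it was 2.05e-05, with the same sign at each stage and a range from 3.58 to 6.85. Id1 (adjusted p 7.64e-05) and Id3 (adjusted p 0.00051) were called in opposite directions at E11.5 and E12.5. Smad6 had an adjusted p of 0.000109 and was called at E12.5 alone. Id2 had an adjusted p of 0.00554 and was lower in XX at E11.5 and higher at E13.5. Bmpr1b had the weakest of these results, with an adjusted p of 0.0144 and differences from 0.69 to 2.37. Of all genes tested, 70.1% were called in the same test.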

How the results depend on the processing

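Over the XX minus XY tests of the 9 genes, 476 of 516 repeats under other settings kept direction and side of the threshold, over the stage steps 701 of 778, and over the F tests 664 of 673. The alternative with TPM rescaled by TMM was chosen after seeing the data, because unscaled TPM moved the median of all genes by 0.17 (XX minus XY at E12.5), -0.21 (XX into E13.5) and -0.16 (XY into E12.5) on the log2 scale. The interaction call of Bmpr1b was lost in limma-trend on TPM (adjusted p 0.0521, 0.0779 with no filter and 0.0752 rescaled), and any change of Bmp4 in XX was lost there (0.0537, 0.108, 0.0773 and 0.0518) and without XX E11.5 replicate 3 (0.19). For Grem1, any change in XY (0.254) and the XY change into E12.5 (-0.22, adjusted p 0.131) were lost in limma-trend with no filter. The cause was not tested.

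Counts of members called moved as follows, and those over all genes are given beside them. Into E12.5 in XX, 5 became 2 with at least 10 counts in every library, 3 in limma-trend with either pseudocount or with rescaled TPM, 1 with only the libraries compared and 3 to 5 without 1 library. Over all genes, 5505 of 16190 became 4025 of 11679 with at least 10 counts and 1176 of 14709 with only the libraries compared. Those limma-trend fits called 4808 of 15114 to 5298 of 15147, and fits without 1 library called 4164 of 16526 to 7440 of 16626. Into E13.5 in XX, 1 became 3 with only the libraries compared, where 5129 of 16190 genes became 6462 of 14467. Into E15.5 in XX, 2 became 1 with at least 10 counts or in limma-trend with no filter, 5 with only the libraries compared, and 1 to 2 without 1 library. Over all genes, 4144 of 16190 became 3601 of 11679, 3562 of 24356, 5581 of 13921 and 2540 of 16477 to 3919 of 16632 in the same order. Into E15.5 in XY, 1 became 4 in DESeq2, 5 with only the libraries compared and 1 to 2 without 1 library. Over all genes, 3448 of 16190 became 3946 of 16167, 6111 of 13787 and 2458 of 16511 to 2894 of 16655 in the same order. Any change in XX went from 7 to 4 with at least 10 counts in every library, a filter that removes low genes and kept 6 members. Over all genes, that count went from 11982 of 16190 to 9353 of 11679. Of the pathway list, 16 of 43 called at E11.5 became 7 of 42 with only the libraries compared, and 28 of 43 at E12.5 became 17 of 27 with at least 10 counts in every library, which tests fewer genes. Over all genes, the first went from 6803 of 16190 to 2718 of 15395, and the second from 10046 of 16190 to 7284 of 11679.

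With the replicate number as a block, 2 members were called into E15.5 in XY in place of 1, as Bmp4 passed (1.66, adjusted p 0.049). Bmp4 at E11.5 (-1.05, adjusted p 0.0282) and Bmp7 at E12.5 (-0.40, adjusted p 0.0218) also passed between the sexes, and the block changed no other call.

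All reversals were of values that were not called. Over the fits without 1 library, the values that changed sign were, between the sexes at E11.5, Bmp7 (-0.01 to 0.30), Grem1 (-0.74 to 1.42) and Smad6 (-0.21 to 0.71, with -0.07 and -0.05). Among the XX steps they were Bmpr1b into E12.5 (-0.32 to 0.19, with 0.06 and 0.09), E13.5 (-0.03 to 0.47) and E15.5 (-0.36 to 0.03), Id2 into E12.5 (-0.20 to 0.27, with 0.05) and E15.5 (-0.20 to 0.09, with 0.08), and Id3 into E13.5 (-0.15 to 0.26, with -0.02). In limma-trend on TPM they were Id2 into E12.5 (0.12 in 3 settings and 0.03 rescaled), Smad6 into E13.5 (-0.05 in 2 settings and -0.08) and Id3 into E13.5 (-0.21 in 3 settings and -0.03 rescaled). In XY they were Bmp4 into E13.5 (0.18 in 3 settings and 0.40, limma-trend), and, without 1 library, Bmp2 into E15.5 (-0.29 to 0.22) and Id3 into E15.5 (-0.01 to 0.26). Depth limits Grem1: at E12.5 it allows no fold between the sexes.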
